A study of Homo sapiens with 14 samples.

Results

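The icSHAPE and icLASER profiles of RNA inside K562 cells were compared nucleotide by nucleotide. Transcripts were kept when they had a row in both in vivo profiles and at least 100 nucleotides scored in both, and each gene was then represented by its transcript with the highest mean RPKM. RPKM is a read count scaled by transcript length and library size. This gave 4572 genes of the 6778 that had a row in any of the 4 profiles, with 5833209 nucleotides scored in both. No measured reactivity entered that choice. The median r was 0.554 in the 15 genes just inside that minimum, with under 110 shared positions, and 0.515 in 24 genes just outside it, with 90 or more.

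K562 is an established human erythroleukemia cell line. The study holds 14 libraries from these cells. For the profiles compared here, 3 libraries came from cells given 100 mM NAI-N3 for 5 min (icSHAPE in vivo) and 2 from cells given NAz-N3, from a 1 M stock, with 10 min of UV light (icLASER in vivo). Control libraries were 3 with DMSO alone for icSHAPE and 2 without UV light for icLASER, whose label protocol nevertheless names a UV step. RNA taken out of the cells, refolded and then probed made up 2 libraries for each reagent (in vitro). All RNA was selected for poly(A) tails by the methods. The authors deposited 1 profile for each reagent and condition, in which replicates and controls are already combined. No value below therefore has a replicate check, no p-value is given, and the read depth behind a score is unknown. Each nucleotide carries an enrichment score made by the authors from the treated and control libraries, scaled from 0 to 1 apart from 3 in vivo scores outside that range. A score of at least 0.5 is called reactive below. Of 10 markers of K562 cells, 9 had a row in both profiles, led by the fetal globin gene HBG1 at an RPKM of 2652 with icSHAPE and 1763 with icLASER. Of 10 markers of other blood cells, 8 had a row in neither profile. LYZ was listed at 10.6 and 31.4, and ITGAM at 9.09 with icLASER alone.

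NAI-N3 acylates the 2′-hydroxyl of the ribose and reacts best where the backbone is flexible, as in loops and single strands. NAz-N3 is activated by light and adds to the C8 position of purine bases that solvent can reach. Either adduct carries an azide through which biotin is attached for enrichment, and each is read as a stop of reverse transcription beside the modified nucleotide. A nucleotide can be flexible yet buried, or held in a helix yet open to solvent, so the reagents need not mark the same positions.

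The stretches of coding sequence at the extremes show how closely the marks can coincide and how far they can part. Coding sequences were divided into 20528 windows of 25 nt with every nucleotide scored in both profiles, from 735 genes. Windows with the most positions reactive to both reagents are shown first, then the windows with the largest difference in number in either direction. Each window is printed 5′ to 3′, once for each profile, with capitals at the nucleotides scoring at least 0.5, as the deposited scores place them. Whether those scores sit on the modified nucleotide or 1 nt beside it could not be settled from the files. Sequences are those of GENCODE release 44 on GRCh38. UBA2 encodes a subunit of the enzyme that activates SUMO (chr19:34469137-34469161, plus strand, exon 17), NUSAP1 a spindle protein (chr15:41377251-41377275, plus strand, exon 10) and HSPD1 the mitochondrial chaperonin (chr2:197498824-197498848, minus strand, exon 2, from the start codon on). EIF3D encodes a subunit of an initiation factor (chr22:36511536-36511560, minus strand, exon 14), HMGB1 a chromatin protein (chr13:30461455-30461479, minus strand, exon 5) and NMU a neuropeptide precursor (chr4:55600536-55600560, minus strand, exon 8).
UBA2, icSHAPE: AUUaGauGAGAAagaGAAUCUCagu
UBA2, icLASER: AUUAGAUGAGAAAGAGAAUCUCaGU
NUSAP1, icSHAPE: cAacagAAUUAAcUuCUACAagaaA
NUSAP1, icLASER: cAAcaGAAUUAaCUUCUACAAGAaA
HSPD1, icSHAPE: AUGCUUcGGUUACcCaCAGUcUUUc
HSPD1, icLASER: aUgcuucgGuUacccacaGucuuuc
EIF3D, icSHAPE: accuucagcucuGaugaaGaugagg
EIF3D, icLASER: ACCUUcAGCUCuGAUGAAGAUGaGG
HMGB1, icSHAPE: Gucaaggcugaaaaaagcaagaaaa
HMGB1, icLASER: GUcaagGCUGAAAaAAGCAAGAAAA
NMU, icSHAPE: cccuuugcaagucaaagucgaggau
NMU, icLASER: cCCUUUGCaaGUCAAAGUcgagGAU

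In the UBA2 window 16 positions were reactive with icSHAPE and 24 with icLASER, and all 16 were among the 24. In the NUSAP1 window the numbers were 14 and 20, with 13 shared. The first 25 nucleotides of the HSPD1 coding sequence held 20 positions reactive with icSHAPE and 4 with icLASER, at mean scores of 0.751 and 0.166. The EIF3D window was the reverse, with 2 and 22 positions at mean scores of 0.162 and 0.838. In HMGB1 the window had 1 icSHAPE position against 20, and in NMU it had 0 against 18. Over their whole transcripts the same genes were less uneven: 13.7% of HSPD1 positions were reactive with icSHAPE and 13.4% with icLASER, and 11.1% of EIF3D positions with either. The windows of GMPS, STXBP5 and ENSG00000144785 also met the rule. GMPS had 13 shared positions, and STXBP5 had 15 icSHAPE positions with every icLASER score at 0. Over the whole STXBP5 transcript 76.1% of icLASER scores were 0. A typical window had 3 positions reactive with icSHAPE, 2 with icLASER and 1 with both (medians), and icSHAPE marked more positions in 52.6% of windows against 32.2% for icLASER.

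All 4572 genes had a positive correlation between the reagents, and its size varied widely. The Pearson r across the nucleotides of a transcript had a median of 0.369, with quartiles of 0.285 and 0.476 and a range from 0.0362 to 0.956. Neighbouring nucleotides and both profiles share a transcript's coverage, so r is a description. Of all nucleotides, 12.1% were reactive with icSHAPE and 11.3% with icLASER. Both reagents marked 3.75% of nucleotides (Wilson interval 3.73% to 3.76%, for counting error alone), where the product of the separate shares is 1.37%, a ratio of 2.74. Thus 30.9% of icSHAPE positions were also reactive with icLASER, and 33.2% of icLASER positions with icSHAPE. The other positions were split between icSHAPE alone, 8.37%, and icLASER alone, 7.56%. A score of exactly 0 in both was found at 29.9% of nucleotides. The correlation was tied to the exact nucleotide. With the icSHAPE profile moved by 1 nt downstream the median r was 0.0253, with 1 nt upstream it was 0.137, and shifts of 2 to 5 nt gave 0.0194 to 0.0774.

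By the base at the deposited position, the reagents were separated most at G. The doubt of 1 nt on that position bears on every value by base here. Sequence could be assigned to 2752 genes whose identifier and length matched the reference, which gave 2137363 nucleotides. Of these genes 765 were coding, and most of the others were pseudogenes, whose values can repeat those of parent genes. At G the mean score was 0.154 with icSHAPE and 0.256 with icLASER, and 11.4% of G were reactive with icSHAPE against 21.5% with icLASER. The other bases went the opposite way. The mean was 0.181 and 0.135 at A, 0.169 and 0.114 at U, and 0.120 and 0.0859 at C, with icSHAPE first. Pooled over nucleotides, the reagents also correlated most at G, with an r of 0.507, and less at A, 0.364, C, 0.287, and U, 0.272. In the coding genes alone these r were lower, at 0.467, 0.296, 0.205 and 0.203 in that order. There the mean at G was 0.175 with icSHAPE and 0.293 with icLASER, and the other bases again went the opposite way. Read by the base 1 nt downstream of the scored one, icSHAPE scores were high before A, at 0.248, and U, at 0.221, and low before C, at 0.0767, and G, at 0.0719. The icLASER scores were 0.210 before A, 0.161 before U, 0.129 before G and 0.0848 before C. Read that way icLASER was still above icSHAPE for G and below it for A and U, but for C the difference turned to 0.00803. At 2 nt downstream the profiles ran close together, at 0.210 and 0.190 for C, 0.208 and 0.187 for U, and 0.0818 and 0.0829 for G.

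**Figure D1:**
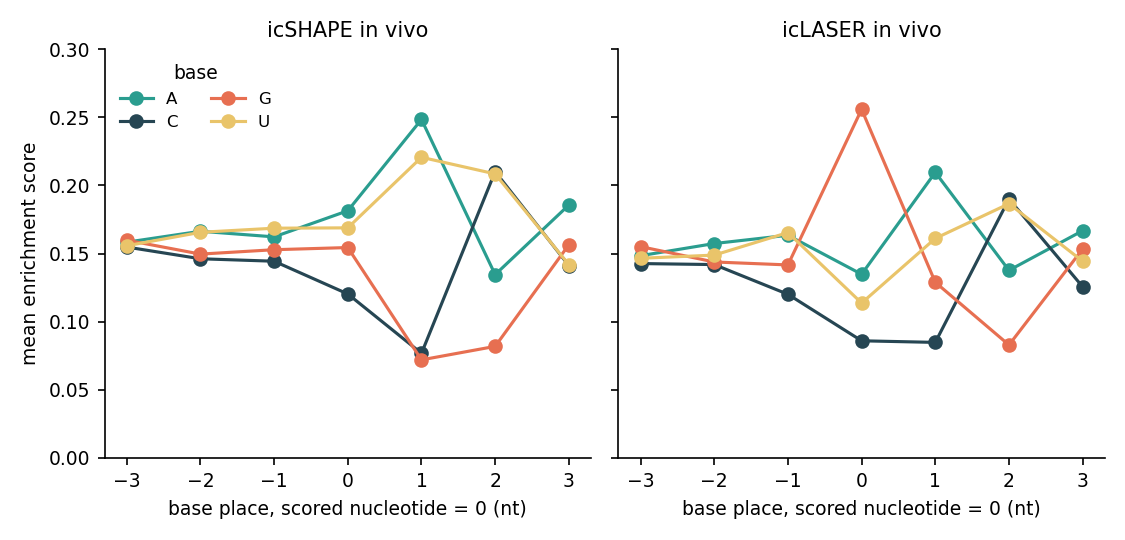
Mean enrichment score (y axis, 0 to 1 scale) by the base at a place from 3 nt upstream to 3 nt downstream of the scored nucleotide (x axis), for icSHAPE (left) and icLASER (right) in vivo over 2752 genes, pseudogenes included. The icLASER score peaked at G in place 0, at 0.256, and the icSHAPE score at A in place 1, at 0.248.

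Nucleotides marked by both reagents combined these preferences. Among them 48.9% were G, against 24.9% of all scored nucleotides, and 56.5% were followed by A, against 27.1%. Of the nucleotides marked by icSHAPE alone 12.7% were G, 35.5% A and 32.4% U. Of those marked by icLASER alone 50.2% were G, and 25.9% were followed by G where the shared class had 9.44%. Among the 64 trinucleotides (previous, scored and next base), all 16 with G in the centre had the higher mean with icLASER, out of 30 that did. The largest excess of icLASER was at AGA, with a mean of 0.390 against 0.247, followed by UGU, AGU, UGA and CGA. The largest excess of icSHAPE was at GUA, with 0.341 against 0.163, followed by CUA, GUU, AUU and UUA. Co-occurrence was above independence within every trinucleotide, at 1.79 to 8.39 times. Of the 5 highest ratios 4 were at C followed by C, where each reagent marked few positions. At ACC 2.16% were reactive with icSHAPE, 2.28% with icLASER and 0.412% with both. Over all 64 together the ratio was 2.41, against 3.17 in the same genes without regard to sequence. With the mean of each trinucleotide taken off both profiles, the median r of these genes went from 0.422 to 0.406, and r stayed above 0 in all 2752. A trinucleotide does not reach the base 2 nt downstream, by which both scores also varied, so that part of the sequence was not taken off.

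Along messenger RNAs the reagents parted towards the 3′ end. The annotation of 765 coding genes with matched sequence was used, and a region entered with at least 50 scored nucleotides. In the coding sequence (764 genes) the mean score over genes was 0.196 ± 0.0357 (SD over genes) with icSHAPE and 0.172 ± 0.0433 with icLASER, and icLASER was the higher in 224 genes. In the 5′ UTR (444 genes) the means were 0.210 ± 0.0708 and 0.192 ± 0.0891, with icLASER higher in 166. In the 3′ UTR (637 genes) the order turned, at 0.141 ± 0.0350 with icSHAPE and 0.177 ± 0.0541 with icLASER, and icLASER was higher in 437. The difference, icLASER minus icSHAPE, was -0.0239 ± 0.0497 (SD over genes) in the coding sequence and 0.0359 ± 0.0671 in the 3′ UTR, so its spread over genes exceeded its size in both. Averaged over positions instead of genes, the 3′ UTR difference was 0.0137. Of 377 genes with all 3 regions, 317 had a greater icLASER excess in the 3′ UTR than in the coding sequence. Base content differed between the regions too, with a median GC content of 63.5%, 50.8% and 41.1% from 5′ to 3′. With trinucleotide means taken off, icLASER minus icSHAPE was -0.0318 in the 5′ UTR, -0.0213 in the coding sequence and 0.0552 in the 3′ UTR. The correlation varied less, with median r of 0.324, 0.363 and 0.332 in that order.

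Within the 3′ UTR the profiles ran in opposite directions. From the first to the last of 10 equal bins, the mean icSHAPE score went from 0.162 to 0.0927 and the icLASER score from 0.165 to 0.248. The first bin had 675 genes and the last 344, so the bins do not cover the same genes. The icLASER profile of refolded RNA had no such rise. At positions scored in all 4 profiles, the last bin (270 genes) had a mean of 0.247 with icLASER in vivo, 0.0693 with icLASER in vitro, 0.0905 with icSHAPE in vivo and 0.0828 with icSHAPE in vitro. At the other end, the first of 5 bins of the 5′ UTR (325 genes) had 0.253 with icLASER in vivo, 0.333 with icLASER in vitro, 0.278 with icSHAPE in vivo and 0.266 with icSHAPE in vitro. Positions at 31 to 50 nt from the 3′ end were also compared with all types of transcript pooled. There icLASER was above icSHAPE in 2604 of 3384 genes in vivo and in 1142 in vitro. The cause was not tested, and the depth along a transcript is not part of the profiles.

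**Figure D2:**
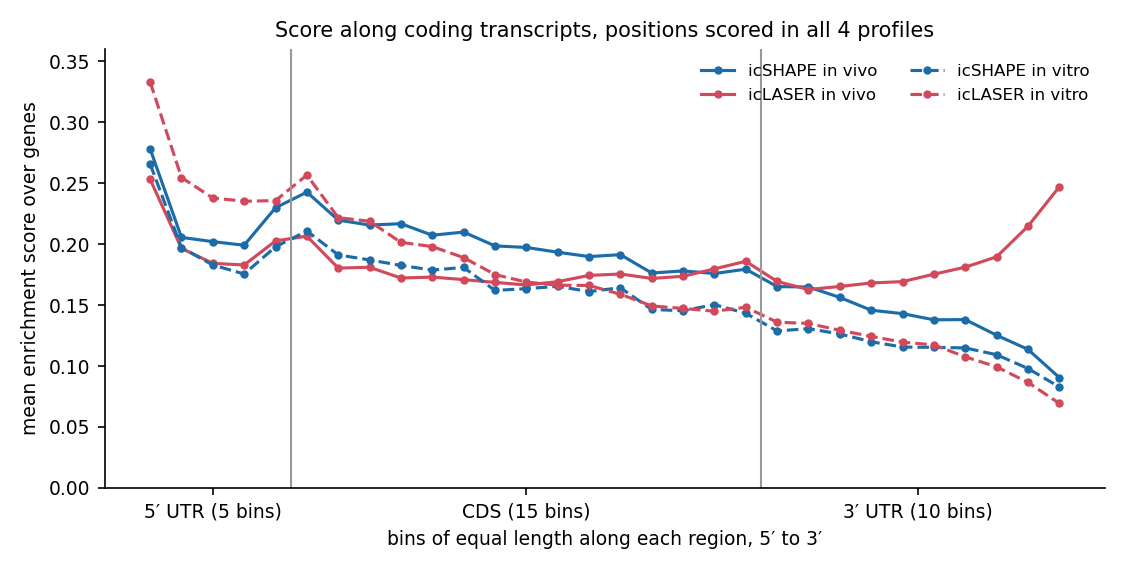
Mean enrichment score over genes (y axis) in bins of equal length along the 5′ UTR, coding sequence and 3′ UTR of coding transcripts (x axis), at positions scored in all 4 profiles, with solid lines for in vivo and broken lines for in vitro. Towards the 3′ end icLASER in vivo rises to 0.247 while the 3 other profiles fall to between 0.0693 and 0.0905. The first 3′ UTR bin has 519 genes and the last 270.

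Region means of single genes varied around this pattern. In STXBP5, which encodes a syntaxin-binding protein, the coding sequence had a mean score of 0.265 with icSHAPE and 0.0751 with icLASER, and the 3′ UTR 0.0880 and 0.161. NDUFS1, a core subunit of respiratory complex I, had 0.199 and 0.1002 in the coding sequence and 0.0793 and 0.197 in the 3′ UTR. CCT5, a subunit of the cytosolic chaperonin, was alike in the coding sequence, at 0.210 and 0.199, and had 0.122 and 0.259 in the 3′ UTR. TFRC, the transferrin receptor, had 0.231 and 0.120, then 0.166 and 0.146, so icSHAPE was the higher in both regions. The kinase gene CDK6 also kept icSHAPE higher in its 3′ UTR of 10160 scored nucleotides, at 0.150 and 0.0854. Most icLASER scores of STXBP5, NDUFS1, TFRC and CDK6 were 0 over the whole transcript, at 76.1%, 80.8%, 69.4% and 86.7%. With icSHAPE these shares were 63.7%, 48.3%, 42.1% and 56.6%. Their icLASER RPKM was low, at 8.61, 5.61, 9.24 and 7.39, so their means rest on few scores above 0. CCT5 had 25.1% of icLASER scores at 0.

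Agreement rose with expression. Among the 2476 genes represented by a protein-coding transcript, the median r was 0.248 at a mean RPKM of 5 to 10, 0.302 at 10 to 20, 0.373 at 20 to 50, 0.432 at 50 to 200 and 0.485 from 200 on. The rank correlation of r with mean RPKM over these genes was 0.678, and with transcript length it was -0.570, as a description over genes. Coding transcripts as a whole had a median r of 0.319. The 1342 pseudogenes had 0.501, the 130 long noncoding transcripts 0.324 and the 535 other transcripts of coding genes 0.355. Pseudogenes share reads with their parent genes wherever their sequences are alike, so their values are uncertain and can repeat those of the parent.

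**Figure D3:**
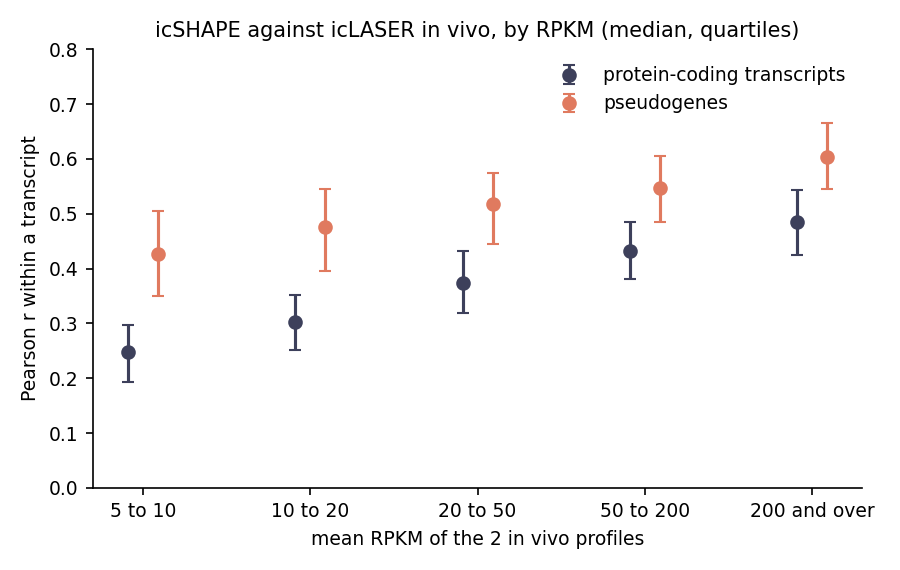
Median Pearson r between the in vivo profiles within a transcript (points) with quartiles over genes (bars) in 5 ranges of mean RPKM (x axis), for 2476 protein-coding transcripts and 1342 pseudogenes. Protein-coding medians run from 0.248 in the lowest range to 0.485 in the highest, with pseudogenes above them in each range.

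An r of at least 0.5 was reached by 927 of the 4572 genes, or 20.3%, and by 6.46% of protein-coding transcripts. An r under 0.2 was found for 7.31% of all genes and 10.2% of protein-coding transcripts. The mRNAs made inside mitochondria stood highest among 17 gene lists. All 13 had an r of at least 0.5, with a median of 0.594 at a median RPKM of 4836. MT-ATP8, which encodes a short subunit of the ATP synthase, had the highest r of the list, 0.749 over 171 nucleotides. MT-CO3, a subunit of cytochrome c oxidase, had the lowest, 0.522. MT-ATP6, with RPKM of 6764 and 10109, had 0.709, and 40% of its positions reactive to either reagent were reactive to both. MT-ND6, the least abundant at RPKM of 143 and 128, still had 0.547. Nuclear genes of the respiratory chain were 74 of 75 measured, with a median r of 0.450 and 20 at 0.5 or above. COX4I1, an oxidase subunit, was the highest at 0.647 and NDUFS1 the lowest at 0.131. Of the 74, 53 were represented by a protein-coding transcript. The COX4I1 row is a transcript of 452 nt with no coding sequence in the annotation.

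Ribosomal protein genes were all measured and were also high. The 50 genes of the 60S subunit had a median r of 0.462, with 18 at 0.5 or above, and the 34 genes of the 40S subunit had 0.486, with 14. An r of at least 0.5 was reached by 20.3% of all genes and 6.46% of protein-coding transcripts. The median RPKM of the lists was 497 (60S) and 509 (40S), and both medians of r lie near the 0.485 of protein-coding transcripts of such RPKM. Within the 60S list r ran from 0.268 for RPL38 to 0.610 for RPL23A, and the lowest r of the 40S list was 0.276, for RPS12. RPS12 was low despite an RPKM of 3038 with icSHAPE and 2384 with icLASER. These genes have many processed pseudogenes, with which reads can be shared. The 18S and 28S rRNAs, which lie outside the genes counted, had r of 0.472 over 1833 nucleotides and 0.485 over 5034.

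**Figure D4:**
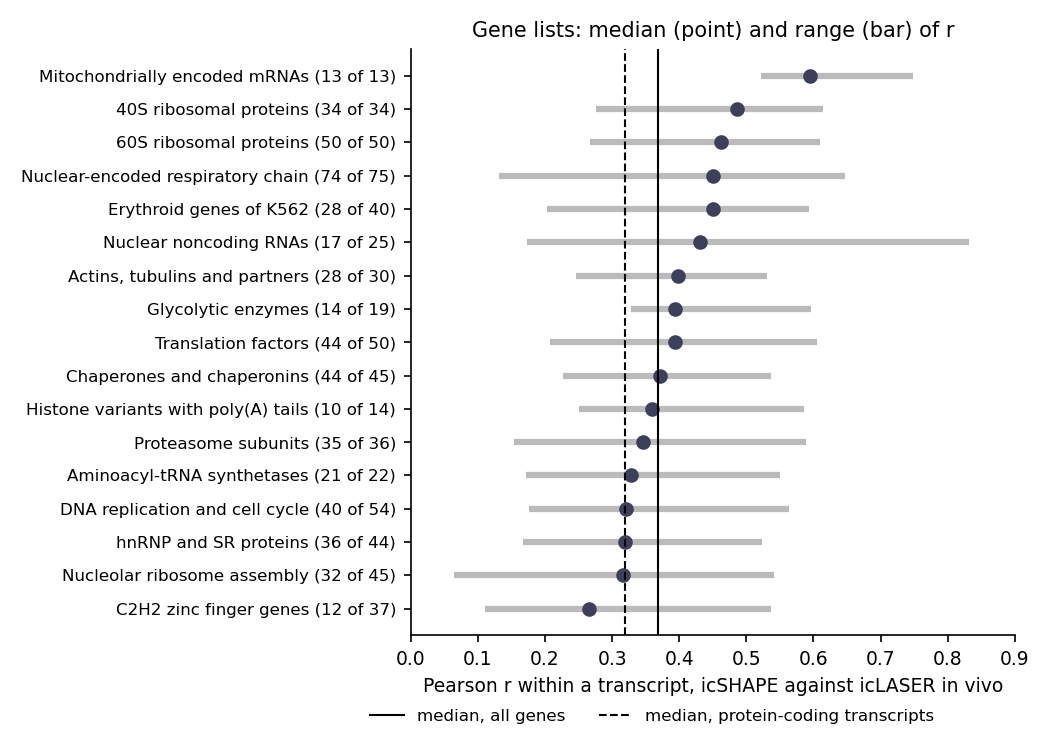
Median (points) and range (bars) of r between the in vivo profiles in 17 gene lists, with the number measured in brackets, beside the median of all genes (0.369, solid line) and of protein-coding transcripts (0.319, broken line). Mitochondrially encoded mRNAs lead at 0.594, and C2H2 zinc finger genes are lowest at 0.265.

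Genes that mark the erythroid character of K562 had a median r of 0.450 (28 of 40 measured), from 0.204 in TFRC to 0.594 in the fetal globin gene HBG2. Of these 28, 9 reached 0.5, where the shares were 20.3% over all genes and 6.46% over protein-coding transcripts. Among the 9 were the globin genes HBA1 at 0.514, HBG1 at 0.527, HBM at 0.521 and HBZ at 0.522 and the erythroid transcription factor gene KLF1 at 0.507. Translation factors had 0.394 (44 of 50), glycolytic enzymes 0.394 (14 of 19), actins, tubulins and their partners 0.398 (28 of 30) and chaperones 0.371 (44 of 45). Medians under that of all genes were found for proteasome subunits at 0.346 (35 of 36), aminoacyl-tRNA synthetases at 0.329 (21 of 22), genes of DNA replication and the cell cycle at 0.321 (40 of 54), hnRNP and SR splicing proteins at 0.319 (36 of 44), nucleolar factors of ribosome assembly at 0.316 (32 of 45) and C2H2 zinc finger genes at 0.265 (12 of 37). The last 2 lists had median RPKM of 16.7 and 11.3. The median of all genes includes pseudogenes, and against the 0.319 of protein-coding transcripts 14 of the 17 lists were higher. The proteasome, synthetase and replication lists were among those. Among the 32 nucleolar factors 5 were under 0.2, where the share over all genes was 7.31%. The pseudouridylation factor GAR1 had 0.189 and the small-subunit factor UTP4 had 0.181. The box C/D core proteins were spread over the list, with SNU13 at 0.541, NOP56 at 0.517, FBL at 0.273 and NOP58 at 0.0649, the lowest. Poly(A)-tailed histone variants had 0.359 (10 of 14). The 17 nuclear noncoding RNAs measured of 25 had 0.431, from OIP5-AS1 at 0.173 to MALAT1, a nuclear speckle RNA, at 0.832. The MALAT1 row is a transcript of 352 nt, of which 316 nucleotides were scored in both. Only 32 of its positions were reactive to either reagent, and 65.6% of these were reactive to both. Its rank correlation between the reagents was lower than its r, at 0.425, where the median over all genes was 0.349. Of its icLASER scores 66.5% were 0.

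Of the 10 genes with the highest r among those with at least 500 shared nucleotides, 7 were pseudogenes and 3 were mitochondrial mRNAs. They included MTCO1P2 at an r of 0.838, MTND2P28 at 0.766, MT-ATP6 at 0.709, MT-ND2 at 0.708, RPL5P23 at 0.709 and MT-ND4 at 0.688. At the bottom were TSC22D2, a regulator of the leucine zipper family, at 0.0362, the growth factor gene IGF1 at 0.0446, CDK6 at 0.0466, the splicing regulator PTBP3 at 0.0524, STXBP5 at 0.0633 and MFSD14B at 0.0634. Several had RPKM near the lower limit of the profiles, with 5.43 and 8.03 for TSC22D2, 6.57 and 7.39 for CDK6 and 5.22 and 7.28 for PTBP3. NOP58, a core protein of box C/D particles, had 0.0649 at 22.2 and 67.1 on a transcript with no coding sequence in the annotation. The small nucleolar RNA SNORD3A had 6.45% of its positions reactive to either marked by both, at an RPKM of 27.2 and 25.8, and had an r of 0.137.

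The RPKM of most genes differed little between the profiles. The median icLASER to icSHAPE ratio was 1.04, a log2 of 0.06, and log2 RPKM correlated with r of 0.928 over genes. Relative to the median gene, 6.15% of genes were more than 2-fold higher with icLASER and 1.71% more than 2-fold higher with icSHAPE. Among protein-coding transcripts these shares were 5.01% and 1.66%. The sources used here do not say which libraries the RPKM was taken from, and the lowest RPKM in the profiles was 5.01 with icSHAPE and 5.02 with icLASER, so lower genes could not enter. A further 462 genes had a row with icSHAPE alone and 1069 with icLASER alone. Where a gene has several overlapping transcripts, their reads can be shared, so a ratio belongs to the transcript chosen.

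The Hsp70 genes HSPA1A and HSPA1B had the highest ratios among genes with a mean RPKM of at least 20. HSPA1A, an inducible Hsp70, had an RPKM of 23.8 with icSHAPE and 782 with icLASER, 31.6-fold above the median gene. Its near-identical neighbour HSPA1B had 30.4 and 916, and reads cannot be divided securely between the pair. The co-chaperone gene DNAJB1 had 14.9 and 161, or 10.4-fold, after MALAT1 at 13.7-fold, VAT1 at 11.5-fold and C4orf48 at 10.6-fold. Over all genes 6.15% were more than 2-fold above the median gene and 1.71% below. Of the 44 chaperone genes, 7 were above and 0 below. The others were HSPB1, a small heat shock protein, at 105 and 297, HSP90AA1 at 59.9 and 148, the lectin chaperone gene CALR at 73.9 and 197, and BAG6 at 9.33 and 21.7, named after their values were seen. In vitro, HSPA1A had 128 with icSHAPE and 499.6 with icLASER, HSPA1B had 154 and 579, and DNAJB1 had 24.2 and 85.3, so all 3 were higher with icLASER there too. Stress and immediate early genes were looked at after these values were seen. DUSP1, a phosphatase gene, had 6.69 with icSHAPE and 29.2 with icLASER, EGR1 had 8.78 and 17.5, and JUN had a row with icLASER alone, at 40.4. UBB was closer, at 186 and 248. BAG3, IER2 and IER5 had 6.54 and 11.8, 12.1 and 17.2, and 14.99 and 25.1, and MYC was higher with icSHAPE at 79.7 and 49.1. FOS, ATF3 and HSPA6 had a row in neither profile. The cause of these ratios was not tested.

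Other genes with a high ratio belonged to several functions. The MALAT1 row had 28.3 with icSHAPE and 404 with icLASER in vivo, but 694 and 319 in vitro. FTH1, the ferritin heavy chain, had 74.1 and 330, while FTL, the light chain, had 3372 and 2942. ACTB had 84.8 and 381 for a transcript of 715 nt, the glycolytic enzyme gene ALDOA had 21.6 and 77.2, the ATP synthase gene ATP5F1D had 8.77 and 51.8, the linker histone gene H1-10 had 45.7 and 161, and CDT1, which licenses replication origins, had 10.4 and 52.5. Of 36 hnRNP and SR genes measured, 6 were more than 2-fold above the median gene, where the share over all genes was 6.15%. PCBP1 was among the 6, at 50.003 and 146. VAT1 had 7.52 and 89.5, on a transcript of 478 nt not annotated as protein-coding, and C4orf48 had 14.6 and 161.

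**Figure D5:**
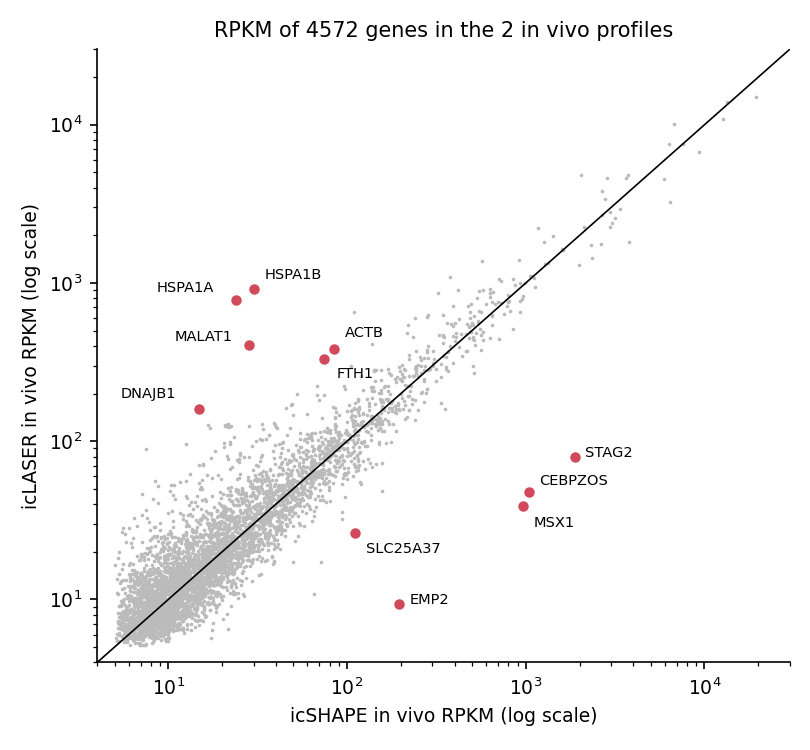
RPKM of each of the 4572 genes in the icSHAPE in vivo profile (x axis, log scale) and the icLASER in vivo profile (y axis, log scale), with the line of equality and named genes in red. HSPA1A and HSPA1B lie above the line at 782 and 916 with icLASER, and STAG2 below it at 79.9 against 1882.5.

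In the other direction, 5 genes stood out. STAG2, a cohesin subunit, had 1882.5 with icSHAPE and 79.9 with icLASER, on a transcript of 864 nt without an annotated coding sequence. CEBPZOS had 1037 and 48.0, the homeobox gene MSX1 had 967 and 38.7, EMP2 had 196 and 9.40, and the protease gene ADAM10 had 65.5 and 10.8. All 5 were also higher with icSHAPE in vitro, as in STAG2 at 1010.3 and 196 and MSX1 at 484 and 89.9. Their r was under the median of all genes, at 0.273 in STAG2, 0.281 in CEBPZOS, 0.261 in MSX1, 0.202 in EMP2 and 0.143 in ADAM10. The mitochondrial iron importer gene SLC25A37 had 111 and 26.4, the lowest ratio among erythroid genes. Of the 28 erythroid genes measured, 9 lay above the median gene, and the embryonic globin gene HBE1 had 146 and 71.6. Genes of DNA replication leaned the same way: 9 of 40 measured lay above the median gene, the list median was -0.29 on the centred log2 scale, and PCNA, the sliding clamp, had 118 and 54.9. The log2 ratio had a rank correlation of 0.259 with GC content over the 2752 genes with matched sequence and of 0.428 over the 765 coding genes among them.

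Predicted structure was related to the icSHAPE score more than to the icLASER score. The probability that each nucleotide is unpaired was computed for the 500 coding genes of highest RPKM with matched sequence, over 571444 nucleotides. Nucleotides reactive with icSHAPE alone had a mean probability of 0.591 and those reactive with both 0.535. Nucleotides reactive with icLASER alone had 0.428, near the 0.447 of those reactive with neither. The classes differ in their share of G, so each base was also taken alone. Within G the mean was 0.450 where both reagents marked the nucleotide, 0.392 with icSHAPE alone, 0.361 with icLASER alone and 0.286 with neither. Within A it was 0.739, 0.707, 0.624 and 0.602. Among G and A, the nucleotides marked by both were the least paired. Within U and C the nucleotides marked by icSHAPE alone were the least paired, at 0.564 and 0.524, against 0.537 and 0.454 for both. The median correlation of score with unpaired probability was 0.185 for icSHAPE and 0.0132 for icLASER at the scored nucleotide, and it was highest when read 1 nt downstream, at 0.229 and 0.0648.

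The reagents agreed about as well on refolded RNA. At 4806298 positions scored in all 4 profiles in 3516 genes, the median r between reagents was 0.383 in vivo and 0.394 in vitro, with the in vitro value higher in 1832 genes. In the 2013 protein-coding transcripts among them it was 0.333 in vivo and 0.353 in vitro, higher in vitro in 1190. The share reactive to both was 2.75 times that under independence in vivo and 3.07 times in vitro. Within a reagent, the median r between in vivo and in vitro was 0.510 for icSHAPE and 0.603 for icLASER. The profiles of a reagent may share control libraries, so these values cannot be set directly against those between reagents.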

How the data were processed

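The authors aligned reads to the Ensembl release 88 transcriptome (GRCh38; the submitters' notes name Bowtie2 and Trimmomatic) and ran the icSHAPE pipeline without its filters on coverage and on background density. They deposited 4 profiles with an RPKM per transcript and an enrichment score per nucleotide. All columns were used. Treated libraries were captured through the reagent's biotin and DMSO libraries through a biotin linker, which can change both quantities. From the deposited scores, Pearson r, shares of reactive nucleotides, and base and region means were obtained in Python 3.11.15 (pandas 2.3.3, numpy 2.4.6, scipy 1.17.1). Figures were drawn with matplotlib 3.10.9. Unpaired probabilities came from ViennaRNA 2.7.2 (window 150, span 100). Sequence, gene and region came from GENCODE release 44 (Ensembl 110), by identifier and equal length. Rows without a gene there, 253 with 18S and 28S among them, were left out of the genes. The measures were checked on simulated data.

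Named genes are, in each list, the highest and lowest by r and by RPKM ratio, the extremes overall (10 each by r among genes with 500 positions, 5 each by ratio among genes with RPKM of at least 20, 5 each by shared share), and FTH1 and FTL. Some genes that meet these rules are not reported here. Others are said to have been chosen after their values were seen or are list markers. Genes, lists and rules were chosen with earlier results of these data known. Alternatives changed the coefficient, transcript, filters, thresholds, position, sequence context, pseudocount and folding span.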

Additional observations from a re-analysis of the deposited data

Results flagged for a closer look

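The mean reagent difference had opposite signs inside cells and on refolded RNA in 8 of 9 windows at the transcript ends, whatever its size. The RPKM ratio was more than 2-fold above the median gene in one condition and more than 2-fold below it in the other for 3 of 3517 genes in all 4 profiles, of which MALAT1 is named here. Smaller ratios on opposite sides of 1, as in RPL23A, RPL38 and TMSB10, were not listed. None of these differences between conditions was tested, since each profile stands alone. In the windows, icLASER minus icSHAPE in vivo, less the same difference in vitro, was -0.0958 at 7 to 20 nt from the 5′ end, -0.0604 at 21 to 50 nt, -0.0548 at 51 to 100 nt, -0.0544 at 101 to 200 nt and -0.0379 at 201 to 500 nt. From the 3′ end it was 0.121 at 31 to 50 nt, 0.0548 at 101 to 200 nt and 0.00855 at 201 to 500 nt. At 201 to 500 nt the mean differences were small, 0.00468 in vivo and -0.003865 in vitro. By genes that window did not change direction, with icLASER higher in 1631 of 3412 in vivo and in 1528 in vitro. At 101 to 200 nt the in vitro difference was also small, at -0.003844. In the first of the 3′ windows icLASER was above icSHAPE by 0.106 in vivo and differed by -0.0154 in vitro. For MALAT1 the log2 icLASER to icSHAPE RPKM ratio, relative to the median gene, was 3.78 in vivo and -1.07 in vitro, a difference of 4.86.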

How the results depend on the processing

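No paired analysis was possible because each deposited profile combines the replicates and their controls, and for the same reason no replicate could be left out. Of 62 alternatives over 19 values, 51 moved the value and 4 turned its sign. In the other 7 the median log2 RPKM ratio was the same without centring, which could not change it, and counts moved by less. Genes above 2-fold went from 281 to 252 with a pseudocount of 1 and to 313 without centring, those below from 78 to 62 and 63, and lists with a median r above that of all genes from 10 to 14 against protein-coding transcripts and to 9 by rho. Alternatives limited to protein-coding transcripts, without the last 500 nt, or by list with another median or rho were chosen after seeing the data. The median r of 0.369 was 0.349 as Spearman rho, 0.365 over all transcripts, 0.341 for the transcript with most scored nucleotides, 0.355 from 300 nt on, 0.447 from an RPKM of 20 on, 0.0253 and 0.137 with icSHAPE moved by 1 nt downstream and upstream, 0.469 at A and G, 0.426 at scores above 0, 0.319 in protein-coding transcripts and 0.335 without the last 500 nt. It was 0.406 with trinucleotide means subtracted, in genes where it was 0.422 before. The ratio of 2.74 to independence was 2.03 and 3.95 at scores of 0.3 and 0.8, 3.63 as a mean over genes, 2.41 within trinucleotides, 2.81 over all transcripts and 2.54 in protein-coding transcripts. Read by the next base, icLASER minus icSHAPE turned to 0.00803 at C and was 0.0570 for G, -0.0388 for A and -0.0596 for U. Read by the previous base, it turned to -0.0112 at G and 0.00118 at A, and was -0.0243 at C and -0.00321 at U. Averaged over positions, it was -0.0269 in the 5′ UTR, -0.0342 in the coding sequence and 0.0137 in the 3′ UTR. With trinucleotide means subtracted, it was -0.0318, -0.0213 and 0.0552. Median r by region became 0.290, 0.337 and 0.293 with these means subtracted, and 0.268, 0.359 and 0.29988 from 200 nt on. The median log2 RPKM ratio of 0.0558 was 0.0513 and 0.0336 with pseudocounts of 1 and 10, 0.0927 from an RPKM of 20 on and turned to -0.00691 in protein-coding transcripts. The 281 genes above 2-fold and 78 below became 137 and 17 with a pseudocount of 10, 165 and 44 from an RPKM of 20 on, and 136 and 29 in protein-coding transcripts centred on their own median, where fewer genes were counted. The unpaired probability of icSHAPE alone less icLASER alone, 0.163, was 0.148 with the shorter span, 0.180 at a score of 0.8 and 0.0304 at G alone. For both less neither, 0.0883, it was 0.0809, 0.0849 and 0.164. On refolded RNA the median r of 0.394 was 0.353 in protein-coding transcripts, for which the in vivo value at the same positions was 0.333. Other causes of these shifts were not tested. Low RPKM went with low r, and the depth behind a score is unknown, so its part in r was not tested. Sequence was matched for 2752 of 4572 genes.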

Other observations

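By the deposited position, the 3 codon positions differed in the same order with both reagents. Whether scores sit on the modified nucleotide or beside it was not settled, so a value may belong to a neighbouring codon position. Base content was not taken off these means, and both scores varied by base. Over 660 coding genes the mean icSHAPE score was 0.229 ± 0.0430 (SD over genes) at the first position, 0.170 ± 0.0440 at the second and 0.191 ± 0.0397 at the third. The icLASER means were 0.196 ± 0.0544, 0.144 ± 0.0448 and 0.178 ± 0.0486. Near the 5′ end of all transcripts, at 7 to 20 nt, both scores were high, at 0.296 with icSHAPE and 0.257 with icLASER over 3241 genes, and at 201 to 500 nt they were 0.164 and 0.149.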
